A study of Caenorhabditis elegans with 6 samples.

Results

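Mediator, TFIID and RNA polymerase II are the large protein assemblies that start transcription of protein-coding genes. Their genes were taken here by name, as every gene symbol beginning with *mdt-* (Mediator), *taf-* (TBP-associated factors, the subunits of TFIID) or *rpb-* (RNA polymerase II subunits). This gave 48 of the 47157 gene IDs in the files: 20 of Mediator, 17 of TFIID and 11 of RNA polymerase II. RNA was sequenced from whole young adult *Caenorhabditis elegans* of the *blmp-1(s71)* strain (3 libraries) and of the wild-type strain N2 (3 libraries), both raised on plates from synchronized first-stage larvae. The product of *blmp-1* is a DNA-binding zinc finger protein related to mammalian BLIMP1. The labels name no further allele, transgene or treatment in either strain, and they do not describe what s71 does to the gene. The libraries are biological replicates by the submitters' design text, with no word on whether they came from separate cultures. Whole animals hold the germline and the soma together, so fewer cells of a type and less RNA per cell cannot be told apart.

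RNA polymerase II makes the messenger RNA. TFIID, built from the TATA-binding protein and the TAFs, recognises promoters and helps place the polymerase there. Mediator carries signals from DNA-bound transcription factors to the polymerase through its head, middle and tail modules, with a detachable kinase module. Most of these subunits are used in every cell, and in adult hermaphrodites the growing germline is rich in such RNAs, since oocytes are stocked with the machinery of the early embryo.

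In the mutant, 25 of the 48 genes fell, none rose, and 47 had a negative log2 fold change, with a median of -0.79. Unadjusted p was under 0.05 for 40 of them, all negative. For counts at an unadjusted p, here and below, the share of all genes was not counted, so they have no background beside them. That share can be no smaller than the share called at an adjusted p under 0.05. Levels for this comparison are deposited CPM (reads per 1000000 reads on genes) divided by TMM factors, which set libraries to a common scale, and a fold change is the difference of the mean log2(CPM + 1), mutant minus wild type. A gene was called at an adjusted p under 0.05 in limma with Benjamini-Hochberg adjustment over all 13756 genes tested, and all 48 passed the filter on low values. Of all genes tested, 13.4% were called lower and 8.84% higher, 46.9% had a negative log2 fold change, and the median was 0.07. By complex, 11 of 20 Mediator genes, 8 of 17 TFIID genes and 6 of 11 RNA polymerase II genes fell, with medians of -0.74, -0.79 and -0.79. The 3 mutant libraries lay below all 3 wild-type libraries in 36 of the 48, against 26.0% of all genes tested. That count was 22 in the deposited TPM (14.7% of all genes) and 13 in the deposited CPM with library size alone (6.63%), so each statement on overlap in scaled CPM holds for the TMM scale. The members' calls had adjusted p between 0.0337 and 0.0454, close to the threshold.

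**Figure D1:**
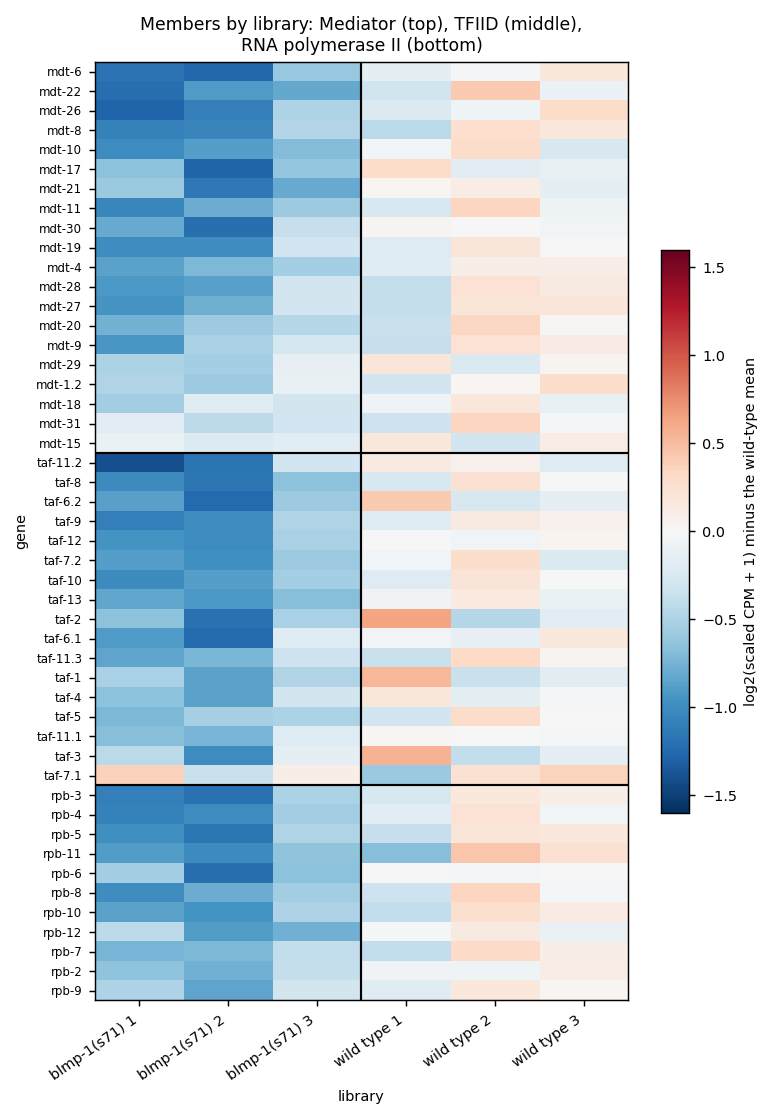
Each row is a gene and each column a library, and the colour is log2(scaled CPM + 1) minus the gene's wild-type mean. The mutant columns are blue for nearly every gene, palest in mutant library 3, while *mdt-15* and *taf-7.1* stand out as rows with little contrast between the groups.

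The size of the difference among the mutant libraries was uneven. Averaged over the 48 genes, mutant libraries 1, 2 and 3 lay at -0.79, -0.89 and -0.45 relative to the wild-type mean, against -0.12, 0.10 and 0.02 in wild-type libraries 1, 2 and 3. Mutant library 3 was the highest of the mutant libraries for 41 of the 48 genes. With limma and 1 library left out in turn, 33 of the 48 were called lower without mutant library 3 (21.8% of all genes), and 1 or 0 in the other fits. No member was called without mutant library 1 or 2 (0.0829% and 0.0680% of all genes) or without wild-type library 2 or 3 (0.191% and 0.161%), and the 1 call without wild-type library 1 (0.249%) was *rpb-11*. In these fits 28 to 43 of the 48 had an unadjusted p under 0.05, and the members' median log2 fold change stayed between -0.90 and -0.64.

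The calls also depended on the scale set between the libraries. limma called 18 of the 48 lower with upper-quartile scaling (9.54% of all genes), 1 with the deposited TPM (1.49%; the call was *mdt-6*) and 0 with library size alone (1.02%), where 7 had an unadjusted p under 0.05. On the reads recovered from the CPM, edgeR called 22 lower (9.49% of all genes) and DESeq2 28 (15.7%). The median of all genes moved with the scale, to 0.18 with upper-quartile scaling, 0.31 with TPM and 0.35 with library size alone. Relative to that median, the members' median was -0.86 with TMM, -0.84 with upper-quartile scaling, -0.83 with TPM and -0.82 with library size alone. All 48 members lay below the all-gene median under each of these 4 scalings, in edgeR and in DESeq2. A scale factor between libraries moves the log2 fold changes of all genes by nearly the same amount. The position of the members relative to that median is therefore nearly fixed across scalings. These fits use the same libraries and are not separate support for it.

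**Figure D2:**
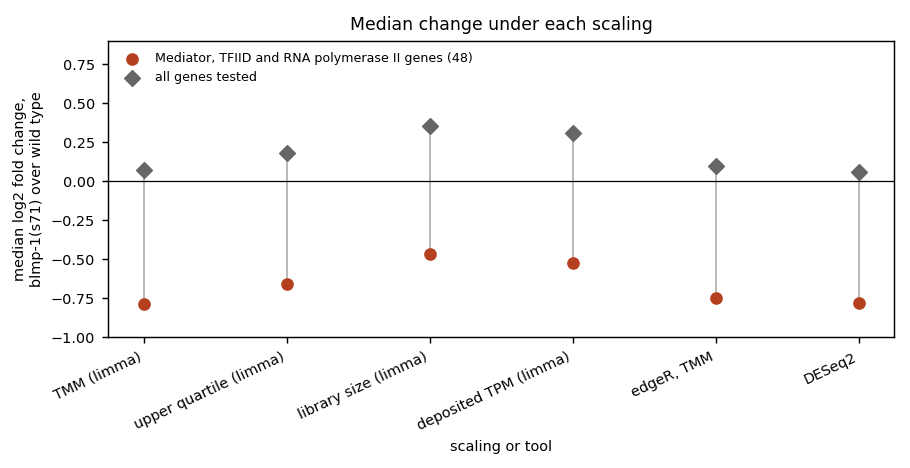
The vertical axis gives the median log2 fold change (mutant over wild type) of the 48 genes as circles and of all tested genes as diamonds, for 4 scalings in limma and for edgeR and DESeq2. Both medians shift together, and the gap between them runs from 0.82 to 0.86 on the log2 scale. A scale factor moves all genes by nearly the same amount, so a near-constant gap is built in.

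The libraries held 6586154, 13711720 and 9893919 reads on genes in mutant libraries 1 to 3 and 5255125, 13319362 and 15218178 in wild-type libraries 1 to 3. *blmp-1* itself had 157, 215 and 92 reads in mutant libraries 1 to 3 and 61, 130 and 165 in wild-type libraries 1 to 3, with a log2 fold change of 0.16 with an SE of 0.32 (adjusted p = 0.697 in limma), so its transcript level does not check the genotype. Markers of body wall muscle, intestine, neurons, oocytes, sperm and the wider germline were all detected in every library of whole animals.

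The head of Mediator, the module that contacts the polymerase, had 6 of 8 genes lower, with a median of -0.83. *mdt-6* (WBGene00003164, chromosome V, 7058547 to 7059624 in the WBcel235 annotation) had 22.5, 21.4 and 34.0 scaled CPM in mutant libraries 1 to 3, against 47.0, 51.7 and 59.3 in wild-type libraries 1 to 3. The groups did not overlap, and its log2 fold change of -1.02 with an SE of 0.24 (adjusted p = 0.0337 in limma) was the lowest of the 48. *mdt-22* had 10.7, 13.4 and 14.3 scaled CPM in the mutant and 20.6, 35.1 and 24.3 in wild type, a log2 fold change of -0.98 with an SE of 0.26 (adjusted p = 0.0341 in limma). *mdt-17*, the scaffold of the head in yeast, had 62.4, 40.3 and 63.9 scaled CPM in the mutant and 121.5, 87.6 and 91.3 in wild type, and its log2 fold change was -0.85 (SE 0.25, limma adjusted p = 0.0360). In both genes every mutant library was below every wild-type library. *mdt-8* fell by 0.87 on the log2 scale, to 27.2 ± 7.16 scaled CPM in the mutant, against 50.5 ± 12.3 in wild type (SD, n = 3 each). *mdt-11* and *mdt-19* also fell, while *mdt-20* (-0.60) and *mdt-18* (-0.35) were not called, although their groups did not overlap either.

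In the middle module, which links head and tail, 4 of 7 genes were lower, with a median of -0.70. *mdt-26*, named after a human subunit that brings elongation factors to the polymerase, had 44.99, 51.6 and 78.3 scaled CPM in the mutant and 94.5, 105.1 and 136.5 in wild type, a log2 fold change of -0.95 with an SE of 0.25 (adjusted p = 0.0344 in limma). *mdt-10* had 10.5, 11.6 and 13.3 scaled CPM in the mutant and 21.5, 27.5 and 18.5 in wild type, a log2 fold change of -0.86 with an SE of 0.24 (adjusted p = 0.0351 in limma). Neither gene showed overlap between the groups, and *mdt-26* had its highest mutant value in library 3. *mdt-21* and *mdt-4* fell by 0.85 and 0.70. *mdt-9*, *mdt-1.2* and *mdt-31* were not called, with log2 fold changes of -0.58, -0.39 and -0.30, and in all 3 the groups overlapped.

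Among the 5 genes of the tail and of its joint with the head, *mdt-30* was the 1 that fell, by 0.79 on the log2 scale, and the median was -0.68. *mdt-15* (WBGene00007016, chromosome III, 5828557 to 5833751 in the WBcel235 annotation) is the tail subunit through which several worm nuclear receptors act on lipid metabolism and stress genes, and it is described here because of its values. It had 163.1, 151.0 and 156.2 scaled CPM in the mutant, against 199.6, 142.4 and 190.7 in wild type. The mutant values lay inside the wild-type range. The log2 fold change was -0.16 (SE 0.22, limma adjusted p = 0.561), and it was 0.17 with library size alone and also positive with TPM and without wild-type library 1. Within each library, *mdt-15* made up 11.08%, 10.1% and 7.98% of the summed TPM of the 20 *mdt-* genes in mutant libraries 1 to 3 and 8.29%, 4.83% and 6.84% in wild-type libraries 1 to 3, and these shares overlapped. *mdt-27* (-0.68), *mdt-28* (-0.70) and *mdt-29* (-0.39) were not called.

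TFIID is held together by pairs of subunits that meet through histone folds. Of these, *taf-8* (WBGene00006390, chromosome II, 9669318 to 9671499) had 22.8, 20.6 and 29.5 scaled CPM in the mutant, against 39.5, 56.1 and 47.5 in wild type. Its log2 fold change was -0.95 (SE 0.23, limma adjusted p = 0.0337). *taf-10*, the partner of TAF8 in yeast and human TFIID, fell by 0.81, to 19.5 ± 3.59 scaled CPM in the mutant, against 34.9 ± 5.15 in wild type (SD, n = 3 each). Neither partner showed overlap between the groups. *taf-13* had 23.5, 21.9 and 26.1 scaled CPM in the mutant and 40.7, 47.6 and 39.5 in wild type, a log2 fold change of -0.81 with an SE of 0.21 (adjusted p = 0.0341 in limma). *taf-12*, the partner of TAF4, had 20.4, 19.6 and 27.7 in the mutant and 40.5, 39.0 and 41.4 in wild type, a log2 fold change of -0.83 with an SE of 0.22 (adjusted p = 0.0346 in limma). *taf-9*, the partner of TAF6, fell by 0.86, to 22.4 ± 5.64 scaled CPM in the mutant, against 40.8 ± 5.08 in wild type (SD, n = 3 each). *taf-12* was tight in wild type, and all its mutant libraries were well below that range.

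*taf-1* to *taf-5* were not called. *taf-1*, the largest TFIID subunit, had 66.3, 51.9 and 67.9 scaled CPM in the mutant and 137.6, 74.3 and 84.0 in wild type, a log2 fold change of -0.62 with an SE of 0.26 (adjusted p = 0.0869 in limma). *taf-2*, a promoter-contacting subunit, had 31.6, 21.5 and 34.8 in the mutant and 78.4, 36.6 and 44.4 in wild type (-0.79, SE 0.30, limma adjusted p = 0.0659). *taf-3*, whose mammalian relative reads a histone mark of active promoters, stood at -0.53 (SE 0.30, limma adjusted p = 0.179). In *taf-1*, *taf-2* and *taf-3*, wild-type library 1 was far above wild-type libraries 2 and 3, as it also was in *taf-6.2*, which fell. Across the 48 genes, the excess of wild-type library 1 over the mean of wild-type libraries 2 and 3 went with exonic length (Spearman's rho 0.50 across genes, which are not independent replicates). It was positive for 6 of the 11 genes of at least 2000 bases and for 8 of the 37 shorter ones. In the limma fits with 1 library left out, the highest log2 fold changes were -0.26 for *taf-1*, -0.38 for *taf-2*, -0.16 for *taf-3* and -0.59 for *taf-6.2*. The part of wild-type library 1 in the size of these changes and in their calls was not tested. *taf-4* and *taf-5* stood at -0.60 and -0.58, with no overlap between the groups.

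Several TAFs exist as pairs or trios of related genes, whose reads may be shared where the copies are alike. *taf-6.2* had 31.8, 24.4 and 39.0 scaled CPM in the mutant and 79.1, 48.99 and 52.7 in wild type, a log2 fold change of -0.90 with an SE of 0.26 (adjusted p = 0.0359 in limma). *taf-6.1* had 12.8, 9.88 and 21.5 in the mutant and 24.1, 22.7 and 28.1 in wild type, a log2 fold change of -0.79 with an SE of 0.28 (adjusted p = 0.0567 in limma). Both lay lower in every mutant library than in any wild-type library. *taf-7.2* fell by 0.82, to 13.6 ± 2.18 scaled CPM in the mutant, against 24.8 ± 4.67 in wild type (SD, n = 3 each). *taf-7.1* (WBGene00006388, chromosome X, 11836068 to 11837478) was the least abundant of the 48, at 3.23, 1.57 and 2.53 scaled CPM in the mutant and 1.17, 2.89 and 3.20 in wild type. Its groups overlapped, and its log2 fold change, 0.04 (SE 0.32, limma adjusted p = 0.933), was the 1 positive value among the 48 and turned negative in edgeR and DESeq2. *taf-11.2* had 14.6, 17.4 and 32.5 scaled CPM in the mutant and 44.7, 42.4 and 34.8 in wild type, the lowest log2 fold change in TFIID at -0.96 (SE 0.29, limma adjusted p = 0.0380). *taf-11.1* and *taf-11.3* were not called (-0.55 and -0.63). Mutant library 3 came close to the wild-type range in *taf-11.2*.

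Per gene length, in TPM, *taf-7.2* stood at 20.2 ± 2.64 in the mutant and 30.9 ± 6.49 in wild type, and *taf-7.1* at 3.81 ± 1.29 in the mutant and 3.09 ± 1.28 in wild type (SD, n = 3 each). *taf-11.2* stood at 30.7 ± 12.8 TPM in the mutant and 48.9 ± 9.07 in wild type, above *taf-11.3* (7.28 ± 1.55 in the mutant, 10.3 ± 2.45 in wild type) and *taf-11.1* (6.53 ± 1.46 in the mutant, 8.32 ± 0.684 in wild type). In every library *taf-7.2* was above *taf-7.1*, and *taf-11.2* above *taf-11.1* and *taf-11.3*. *taf-6.1* and *taf-6.2* were close to each other, at 13.9 ± 5.27 and 15.4 ± 3.12 TPM in the mutant and 19.8 ± 1.56 and 24.7 ± 8.20 TPM in wild type. The log2(TPM + 1) difference within a pair was compared between the groups by an exact two-sided permutation test over libraries for 5 pairs, where the smallest p that 3 against 3 libraries can give is 0.1. For *taf-7.1* minus *taf-7.2* it was -2.17 ± 0.382 in the mutant and -2.997 ± 0.630 in wild type (exact p = 0.2, adjusted 0.5), and for *taf-11.1* minus *taf-11.2* it was -2.02 ± 0.311 in the mutant and -2.41 ± 0.167 in wild type (exact p = 0.2, adjusted 0.5). For the other 3 pairs the exact p was between 0.5 and 0.8.

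**Figure D3:**
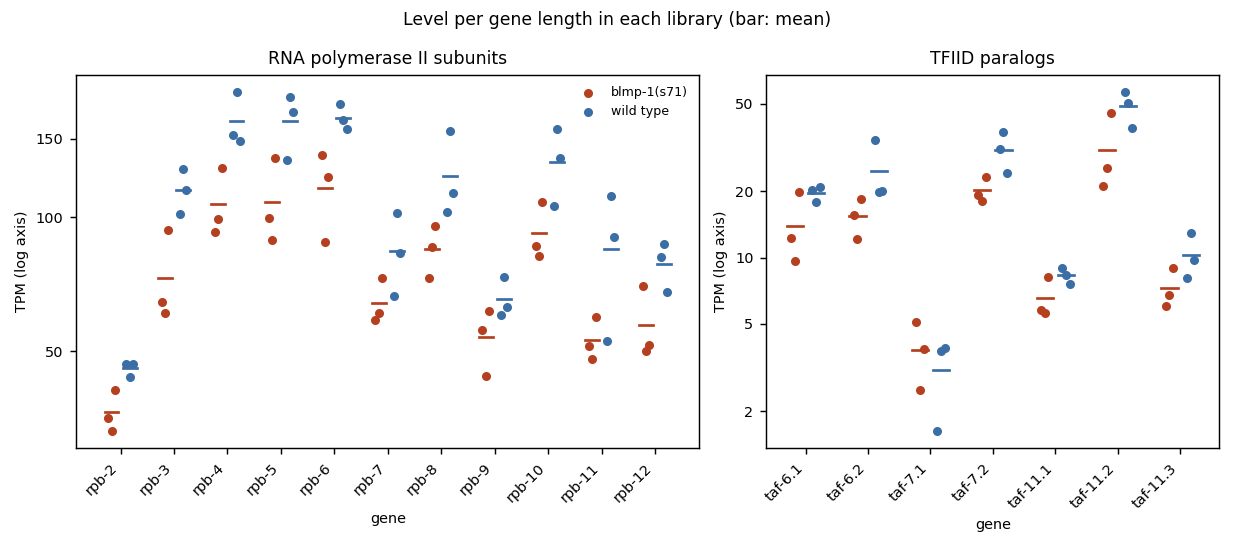
Level per gene length (TPM, log axis) of the RNA polymerase II subunits at left and of the related TFIID genes at right, with 1 point per library (mutant red, wild type blue) and a bar at the mean of 3. *rpb-4*, *rpb-5* and *rpb-6* are the highest subunits and *rpb-2* the lowest, and *taf-7.1* and *taf-11.1* lie far below *taf-7.2* and *taf-11.2*.

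All 11 RNA polymerase II genes had negative log2 fold changes, between -0.93 and -0.54, and the 6 with the smallest adjusted p were called. *rpb-3* (WBGene00007971, chromosome I, 8728764 to 8730054), a subunit of the assembly platform, had 46.1, 42.9 and 69.8 scaled CPM in the mutant, against 82.8, 111.4 and 106.1 in wild type. Its log2 fold change was -0.93 (SE 0.24, limma adjusted p = 0.0341). *rpb-11*, its partner on the platform, had 16.6, 15.2 and 20.05 scaled CPM in the mutant and 19.4, 43.6 and 37.6 in wild type, where library 1 lay inside the mutant range (-0.85, SE 0.29, limma adjusted p = 0.0527). *rpb-4*, of the stalk, had 38.9, 41.1 and 56.6 scaled CPM in the mutant and 73.5, 97.9 and 80.7 in wild type, a log2 fold change of -0.88 with an SE of 0.23 (adjusted p = 0.0341 in limma). Its stalk partner *rpb-7* stood at -0.62 and was not called (SE 0.24, limma adjusted p = 0.0698).

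Of the 5 subunits that all 3 nuclear RNA polymerases share, 4 fell. *rpb-6* had 56.9, 35.8 and 52.9 scaled CPM in the mutant, against 84.5, 82.7 and 84.3 in wild type, a log2 fold change of -0.80 with an SE of 0.23 (adjusted p = 0.0356 in limma). *rpb-5* had 59.8, 52.6 and 84.7 in the mutant and 92.0, 135.8 and 133.5 in wild type, a log2 fold change of -0.87 with an SE of 0.25 (adjusted p = 0.0360 in limma). The groups did not overlap in either, and wild-type *rpb-6* varied little. *rpb-8* and *rpb-10* fell by 0.79 and 0.77, and *rpb-12* stood at -0.69 (limma adjusted p = 0.0506). Of the 6 subunits that serve RNA polymerase II alone, *rpb-3* and *rpb-4* fell. *rpb-2*, which builds the active site with the largest subunit, had 98.0, 90.0 and 118.3 scaled CPM in the mutant and 147.9, 147.0 and 167.8 in wild type, without overlap, and was not called (-0.60, SE 0.21, limma adjusted p = 0.0564). *rpb-9*, which acts in transcription fidelity in yeast, stood at -0.54 and was not called.

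In TPM, which allows levels of different genes to be compared, *rpb-6* (116 ± 25.6 in the mutant, 168 ± 11.09 in wild type), *rpb-5* (108 ± 24.4 in the mutant, 164 ± 26.8 in wild type) and *rpb-4* (107 ± 19.5 in the mutant, 164 ± 23.9 in wild type) were the highest of the 48, and did not differ from one another beyond their spread. *rpb-2* was the lowest polymerase gene, at 36.5 ± 4.12 in the mutant and 45.8 ± 1.79 in wild type. Among TFIID genes *taf-13* was highest (75.9 ± 4.55 in the mutant, 113 ± 14.1 in wild type), and among Mediator genes *mdt-6* by its mean over all libraries (43.7 ± 10.4 in the mutant, 73.8 ± 3.99 in wild type), while *mdt-15* was the higher of these in the mutant (59.4 ± 2.58, against 56.0 ± 11.04 in wild type). *mdt-1.2* was the lowest Mediator gene, at 6.46 ± 1.08 TPM in the mutant and 7.27 ± 1.15 in wild type. The share of a gene in its complex's summed TPM overlapped between the groups for 44 of the 48. The exceptions were *mdt-6*, lower in every mutant library, and *mdt-18*, *taf-11.1* and *rpb-9*, higher in every mutant library. *rpb-9* made up 6.76%, 5.95% and 6.34% of the polymerase sum in the mutant and 5.57%, 5.24% and 5.27% in wild type. These 4 were picked out by their values and carry no test. Under a random order of the libraries, full separation of 3 against 3 in either direction has a probability of 0.1. The count of 4 among 48 is not above that share, so no shift in the make-up of a complex is read from it.

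**Figure D4:**
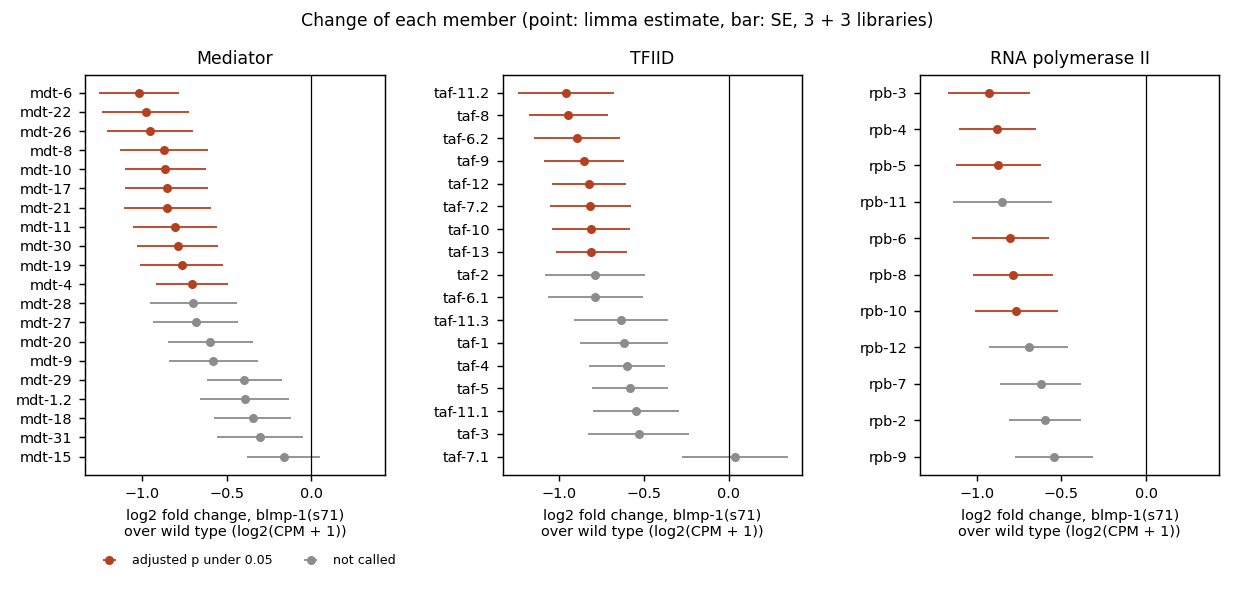
Log2 fold change (mutant over wild type, log2(CPM + 1) scale) of each gene with its SE, by complex, with called genes in red and the others in grey. Estimates run from -1.02 for *mdt-6* to 0.04 for *taf-7.1*, and most lie between -1.0 and -0.5 in all 3 complexes.

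The 4 X-linked genes, *mdt-1.2*, *taf-3*, *taf-7.1* and *taf-11.1*, had log2 fold changes from -0.55 to 0.04 with a median of -0.46, and 0 of the 4 were called by limma, edgeR or DESeq2 or had an unadjusted limma p under 0.05. Of the 1884 tested genes on X, 3.29% were called lower. All 25 members that fell were among the 44 autosomal ones, whose median was -0.79. Of the 11843 tested autosomal genes, 1782 were called lower. The X-linked members were also among the least abundant, with mean TPM over all libraries of 3.45 to 9.30, against a median of 40.5 TPM for the autosomal members, and 4 of the 6 members under 10 TPM lay on X. Over all genes tested the median log2 fold change was 0.23 on X and 0.00 on the autosomes. Level and chromosome cannot be told apart with 4 genes. This split was noticed in the data and was not tested.

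Of 52 other genes of the transcription apparatus, 29 fell and none rose, where 13.4% of all genes tested were called lower and 8.84% higher. Negative log2 fold changes were seen in 50 of the 52, against 46.9% of all genes tested, and the median of the 52 was -0.73. The exceptions were *let-19* and the TFIIA subunit *gtf-2A2* (0.48, SE 0.27, limma adjusted p = 0.181). The TATA-binding protein *tbp-1* fell by 0.77, to 39.7 ± 8.03 scaled CPM in the mutant, against 69.1 ± 15.9 in wild type (SD, n = 3 each), and its relative *tlf-1* by 0.73. In the Mediator kinase module, *cdk-8* fell by 0.77 (limma adjusted p = 0.0489) and its cyclin *cic-1* stood at -0.65 (limma adjusted p = 0.0563). The large kinase-module subunits *dpy-22* and *let-19* stood at -0.14 (SE 0.72) and 0.14 (SE 0.49), and *dpy-22* had 122.0, 52.2 and 56.1 scaled CPM in the mutant and 221.4, 47.3 and 45.9 in wild type. *ama-1*, the largest subunit of RNA polymerase II, had 213.3, 152.5 and 206.9 in the mutant and 570.3, 206.8 and 234.4 in wild type, and was not called (-0.68, SE 0.36, limma adjusted p = 0.167). As with *taf-1*, *taf-2* and *taf-3*, library 1 was far above libraries 2 and 3 in wild type for *ama-1* and in both groups for *dpy-22*. The highest log2 fold change of *ama-1* in the limma fits with 1 library left out was -0.12. Among general initiation factors 8 of 17 fell, among them the TFIIH helicase *xpb-1* (-0.84) and the TFIIF subunit *gtf-2F2* (-0.87). Among elongation factors 10 of 16 fell, with *cdc-73* of the PAF1 complex at -0.88, and among RNA polymerase I and III subunits 8 of 10, with *rpac-40* (-0.91), *rpac-19* (-0.87) and *rpc-2* (-0.87). The count for these 52 genes was 18 with upper-quartile scaling (9.54% of all genes called lower), 1 with TPM (1.49%) and 0 with library size alone (1.02%). It was 19 with edgeR (9.49%) and 31 with DESeq2 (15.7%). In limma it was 38 without mutant library 3 (21.8%) and 0 without any other single library (0.0680% to 0.249%).

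Markers of the wider germline and of oocytes were lower in the mutant as well, while sperm markers were not. Of 20 germline markers 13 fell, with a median of -0.89, and mutant libraries 1 to 3 lay at -0.99, -1.18 and -0.48 relative to the wild-type mean. Of 21 oocyte markers 13 fell, with a median of -1.40, and the mutant libraries lay at -1.56, -2.03 and -0.44. edgeR called 11 of the germline and 2 of the oocyte markers, and DESeq2 13 and 19. Of all genes tested, 13.4% were called lower in limma, 9.49% in edgeR and 15.7% in DESeq2. Like the members' calls, these calls were not stable. Each germline or oocyte marker called in limma was called again in just 1 of the limma fits with 1 library left out. In both lists, as in the members, mutant library 3 lay nearest to wild type and mutant library 2 farthest from it. The summed level of the germline list was 1486 to 2819 scaled CPM in the mutant and 3331 to 4380 in wild type, and that of the oocyte list 3263 to 9568 in the mutant and 10470 to 16630 in wild type. Of 10 sperm markers 3 rose and none fell, where 8.84% of all genes tested were called higher in limma. Their log2 fold changes were all positive, from 0.12 to 1.55 with a median of 0.65. Their summed levels were 310.9 to 434.8 scaled CPM in the mutant and 201.6 to 289.3 in wild type. Among somatic markers 0 of 8 body wall muscle, 1 of 7 intestinal and 2 of 8 neuronal genes were called, all higher, and for muscle the count was also 0 at an unadjusted p under 0.05, in edgeR and in DESeq2. The summed muscle level was 9000 to 15540 scaled CPM in the mutant and 6330 to 18790 in wild type, and the summed intestinal level 3618 to 3864 in the mutant and 3357 to 3951 in wild type. The mean log2 level of the intestinal list, relative to the wild-type mean, did not overlap. It was 0.41, 0.49 and 0.24 in mutant libraries 1 to 3 and -0.23, 0.04 and 0.19 in wild-type libraries 1 to 3. Its log2 fold changes were uneven, with *pgp-1* at 1.61 and 2 of the 7 genes negative. The summed neuronal level was 350.8 to 379.3 in the mutant and 235.4 to 311.2 in wild type, without overlap. None of the markers was at 0 in any library. The part of germline content in the members' change was not tested.

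**Figure D5:**
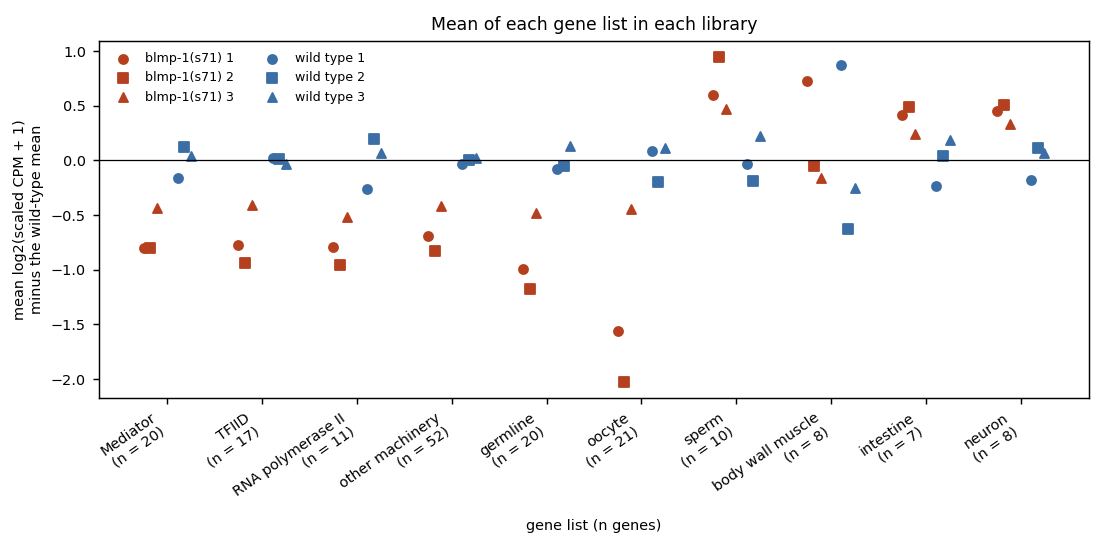
Mean log2(scaled CPM + 1) of each gene list in each library minus its wild-type mean, with mutant libraries in red at left and wild-type libraries in blue at right of each list. The 3 complexes, the other machinery and the germline and oocyte lists lie below 0 in all mutant libraries, with library 3 nearest to 0. The sperm, intestine and neuron lists lie above 0 in all mutant libraries.

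By the WBcel235 annotation, 14 of the 48 genes share exonic bases with another protein-coding gene, among them *mdt-15*, *mdt-18*, *mdt-31*, *taf-6.1* and *taf-7.1* and, of those called, *mdt-4*, *mdt-30* and *taf-9*. How the authors' counting treated strand and shared bases is not given in the sources used here, so the values of these genes are uncertain as to which gene the reads came from.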

How the data were processed

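The authors deposited CPM and TPM per gene ID and library, per the file headers. Each column sums to 1000000, so the libraries were not scaled to one another. The submitters' processing notes list DESeq2 1.22.0, featureCounts 1.6.3, HISAT2 2.1.0 and Trimmomatic 0.36 without saying what each did. No source used here gives the genome build, annotation or strand setting. Per the labels' protocols, TRIzol was used to extract the RNA and a TruSeq kit to build the libraries.

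CPM was divided by TMM factors (0.813 to 1.21), and limma 3.58.1 (R 4.3.3, trend and robust moderation) was fitted on log2(CPM + 1) with the group as its term. The 13756 genes tested reached 1 CPM in 3 or more libraries. Within 0.01 reads, 100% of the nonzero CPM of each library were whole multiples of 1 read, and these reads went into edgeR 4.0.16 and DESeq2 1.42.0. In mutant library 3 the step, 0.101 CPM, lies close to a round decimal, so the steps are less telling there. A count of 3 reads, the limit that a count of 0 allows, equals 0.197 to 0.571 CPM and covers counting error only.

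The members and lists were chosen with earlier results of these data known. Of 53 names listed for the other apparatus 52 matched a gene ID, by the files' names or reference symbols, and of 8 intestinal markers 7 did. Described by rule were the 6 genes of each complex with the smallest adjusted p, its highest and lowest in TPM, its largest fold change, genes sharing a number, the 6 other apparatus genes with the smallest adjusted p, and *ama-1*, *tbp-1*, *dpy-22*, *let-19*, *cdk-8* and *cic-1*. Any other gene named was chosen after its values were seen. The deposited matrix that combines all libraries was not read.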

Additional observations from a re-analysis of the deposited data

How the results depend on the processing

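Of the 48 members, 46 to 48 had negative log2 fold changes in each of the 23 other settings tried, and the exceptions were *mdt-15* and *taf-7.1*. These settings refit the same libraries or a part of them, so the sign counts are not separate support. The number of calls was less stable. Against 3061 calls over all genes, 25 of the 48 members and 29 of the 52 other apparatus genes, no filter on low values gave 115, 0 and 0, leaving out both replicate-1 libraries 116, 0 and 0, and a threshold of 0.01 left 38, 0 and 0. Unadjusted p was under 0.05 for 39 members with no filter and for 28 without the replicate-1 libraries. Library size alone gave 0 members and 0 other apparatus genes, TPM 1 and 1, and for the other apparatus upper-quartile scaling gave 18 and edgeR 19. With 1 library left out limma gave 34 to 4746 calls over all genes, 0 to 33 for the members and 0 to 38 for the other apparatus. In edgeR, chosen after seeing the data, the calls over all genes were 74, 17 and 5366 without mutant library 1, 2 or 3 and 390, 23 and 13 without wild-type library 1, 2 or 3, with 0 to 36 members and 0 to 38 other apparatus genes. In both tools the highest counts came without mutant library 3. There, 2895 of the 4746 limma calls and 2960 of the 5366 edgeR calls over all genes were lower. All calls of members and other apparatus genes were lower.

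The deviations of same-numbered libraries correlated at 0.36 and 0.44 for replicates 1 and 2 and at -0.09 for replicate 3. The main fit did not treat same-numbered libraries as pairs, so it left the shared deviations of replicates 1 and 2 unmodelled. With the replicate number as a block, limma called 5877 genes (3505 lower), 39 members and 44 other apparatus genes, and edgeR 5340 (3124 lower), 35 and 40. The calls of members and other apparatus genes were all lower. The higher calls were 1216 of 3061 with TMM, 2032 of 3344 with upper-quartile scaling, 2282 of 2422 with library size alone and 2020 of 2237 with TPM. With 1 library left out, chosen after seeing the data, the mutant minus wild-type paralog differences ran from -0.14 to 0.25 for *taf-6.1* minus *taf-6.2* (-0.14 without wild-type library 1, -0.049 without mutant library 3), from 0.51 to 1.14 for *taf-7.1* minus *taf-7.2*, from 0.23 to 0.54 for *taf-11.1* minus *taf-11.2*, from -0.045 to 0.31 for *taf-11.1* minus *taf-11.3* and from -0.44 to -0.015 for *taf-11.2* minus *taf-11.3*. The cause of these shifts was not tested.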
